A study of Homo sapiens with 4 samples.

Results

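The G1 cyclins, their kinases and inhibitors comprised 10 genes of the 40205 listed: the D-type cyclins CCND1, CCND2 and CCND3, the E-type cyclins CCNE1 and CCNE2, the kinases CDK2, CDK4 and CDK6, and the inhibitors CDKN1B and CDKN2D. They were chosen by symbol from the known pathway, with the knockdown-to-control ratios of these libraries already known, so those ratios are given as a description without a test. The series holds 4 poly(A) RNA libraries, paired-end, from U87MG and U251, both established human glioblastoma cell lines. In each line, 1 library (WT) came from cells with the control hairpin sh-NC and 1 (KD) from cells with the hairpin sh-SRSF1. SRSF1 encodes a splicing factor of the serine/arginine-rich family. Lentiviruses carried both hairpins (multiplicity of infection 20), and puromycin was applied for 1 week in both arms to obtain stable cells. The labels name one hairpin product per arm and neither give its sequence nor say whether the stable cells were clones.

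Progress through G1 depends on cyclins that activate their kinase partners. D-type cyclins accumulate in response to mitogens and bind CDK4 or CDK6, and these complexes begin to phosphorylate the retinoblastoma protein, which releases E2F transcription factors. E2F factors raise the E-type cyclins, which bind CDK2 and bring the cell into S phase. Inhibitors of the INK4 family, such as the CDKN2D product, block CDK4 and CDK6, whereas p27, the CDKN1B product, binds cyclin-kinase complexes. Loss of INK4 genes and gain of CDK4 are common lesions of glioblastoma.

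Values are RPKM, reads scaled to the length of the gene model and to the size of the library, so levels can be compared between genes. Library totals, recovered from the steps of the RPKM values, ranged from 25099799 to 27953878 reads. SRSF1 was at 88.3 RPKM in U87MG WT and 14.6 RPKM in U87MG KD, and at 109 RPKM in U251 WT and 15.8 RPKM in U251 KD, so the targeted gene was lower in both libraries labelled as knockdown (-2.62 ± 0.16 on the log2 scale, adjusted p = 0.00217 by limma). That call was lost without the filter on low values (adjusted p = 0.416 by limma) and without the cell line as a block. Of the 31-base words of SRSF1, a share of 0.59 also occurs in other annotated genes, most of them in AC015813.2. The comparisons used the 16098 genes with 1 RPKM or more in any library, among them 9 of the 10 members. Of 8 markers of glia and glioma lines, 3 reached 1 RPKM in U87MG and 6 in U251. VIM was the highest at up to 1675 RPKM, while the astrocyte marker GFAP did not exceed 1.47 RPKM. None of the leukocyte, endothelial or epithelial markers reached 1 RPKM. Of 3 neuronal markers 2 did, with RBFOX3 at 0, and of 3 oligodendrocyte markers 1 did in U87MG, with MOG at 0. Log2 ratios below are of (KD RPKM + 1) over (WT RPKM + 1). With 1 library per line and arm there is no replicate check within a line. Intervals on read ratios are 95% exact Clopper-Pearson intervals that cover counting error only.

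CCND1 and CCNE2 were far lower in the knockdown library of both lines, while their paralogs CCND3 and CCNE1 were lower in 1 line each, CCND3 in U87MG and CCNE1 in U251. CDK2, the partner of E-type cyclins, and the inhibitor CDKN2D were lower in both lines by smaller amounts. CDK4, CDK6 and CDKN1B differed little. At least 2-fold lower were 3 members in U87MG (CCND1, CCNE2 and CDK2) and 2 in U251 (CCND1 and CCNE2), and none was 2-fold higher. CDK2 lay at the 2-fold limit in U87MG, with a log2 ratio of -1.01 that became -0.89 after trimmed-mean rescaling and -0.88 after quantile normalization. Among all genes that entered, 3.58% were at least 2-fold lower in U87MG and 1.71% in U251. Since the members were picked with these ratios known, nothing is read from the difference. In bulk RNA, fewer cells in the phase that expresses a gene and less RNA per cell cannot be told apart.

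**Figure D1:**
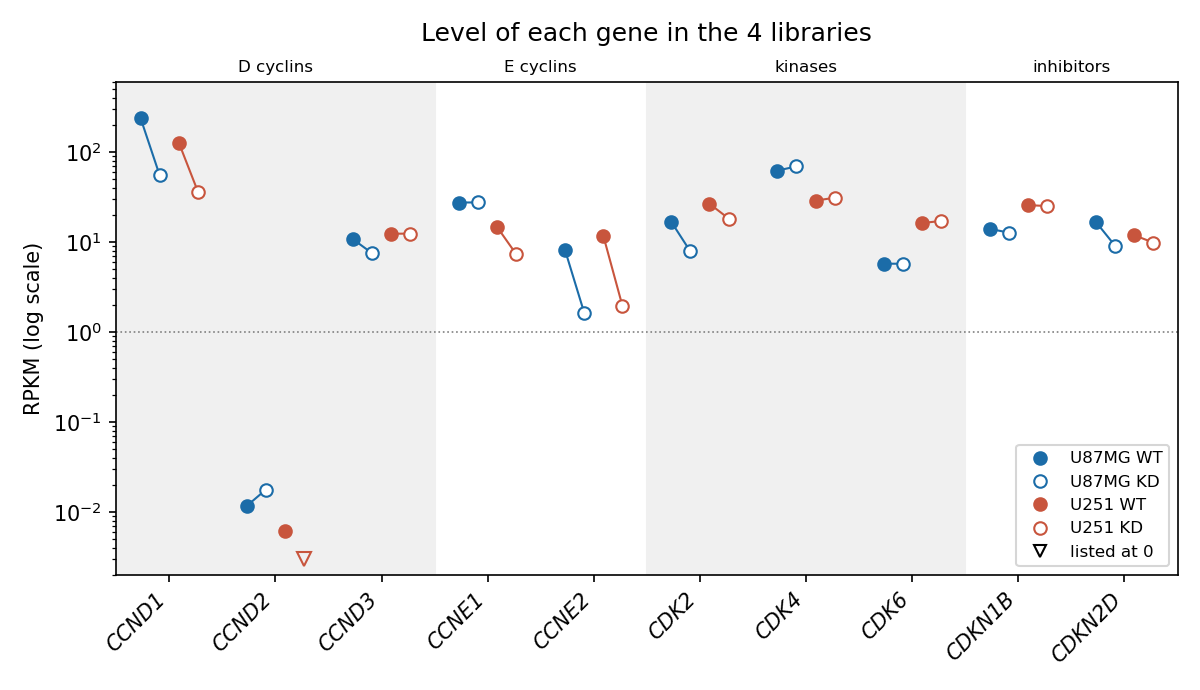
RPKM on a log scale for each member in the 4 libraries, with U87MG in blue, U251 in red, filled circles for WT and open circles for KD, and a triangle where a gene is listed at 0. The dotted line marks 1 RPKM. CCND1 and CCNE2 have the steepest drops from WT to KD in both lines, and CCND2 lies below 0.02 RPKM throughout.

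Among the D-type cyclins, CCND1, encoding cyclin D1, was the predominant transcript. It stood at 238 RPKM in U87MG WT (26859 reads) and 55.1 RPKM in U87MG KD (6143 reads). In U251 it stood at 127 RPKM in WT (13725 reads) and 36.4 RPKM in KD (4363 reads). Both knockdown values lay below both control values. The KD level was 0.232 times the WT level in U87MG (0.225 to 0.238) and 0.285 times in U251 (0.276 to 0.295). Its log2 ratios of -2.09 and -1.78 placed it 19th from the lowest of 16098 genes in U87MG and 25th in U251. CCND1 lies at chr11:69641087-69654474 (GRCh38, forward strand). Its exons overlap those of LTO1 (ORAOV1 in the table) on the other strand by 497 bases. ORAOV1 was at 15.9, 11.6, 7.03 and 7.40 RPKM in U87MG WT, U87MG KD, U251 WT and U251 KD.

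The 3′ UTR of CCND1 holds one copy of GACGTGT, which is shown because the genes carrying this heptamer had lower ratios than other genes in both lines. The copy starts at base 1856 of the 3192-base 3′ UTR of the longest coding transcript in GENCODE 29, within chr11:69653127-69653155 (GRCh38), and the capitals mark it in the sequence read 5′ to 3′.
CCND1 3′ UTR site: gtgtggaggctGACGTGTgagggaggaca
Of 11151 genes with a searched 3′ UTR, 303 (2.72%) carried the heptamer. Their median log2 ratio was -0.30 in U87MG against -0.05 for the other genes, and -0.29 in U251 against -0.0047. Ranked by the shift of the mean ratio, it was the lowest of 16164 heptamers in each line. The heptamer was singled out on these same ratios, which include that of CCND1, so the ranks are a description. None of the other 9 members carried it in the 3′ UTR, including CCNE2. SRSF1 had no copy there and 1 elsewhere in its transcript. The part of this heptamer in the CCND1 value was not tested.

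CCND3, encoding cyclin D3, was at 10.8 RPKM in U87MG WT, 7.54 RPKM in U87MG KD, 12.4 RPKM in U251 WT and 12.4 RPKM in U251 KD. U87MG KD was the lowest of the 4 libraries and the other 3 lay close together. The read ratio was 0.700 in U87MG (0.618 to 0.792) and 1.003 in U251 (0.904 to 1.11). CCND3 lies at chr6:41934933-42050357 (GRCh38, reverse strand). CCND2, encoding cyclin D2, had 2, 3, 1 and 0 reads in U87MG WT, U87MG KD, U251 WT and U251 KD, and its highest value was 0.0177 RPKM. A count of 0 in U251 KD allows up to 0.0165 RPKM at 3 reads. No ratio is given for CCND2, and its gene model (chr12:4273772-4305350, GRCh38) shares 0.15 of its 31-base words with other annotated genes.

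The 2 measured D-type paralogs therefore separated within each library, where the scaling between libraries cancels. CCND1 made up 95.7% of the summed RPKM of the 3 D-type cyclins in U87MG WT and 87.9% in U87MG KD. In U251 its share was 91.1% in WT and 74.5% in KD. The CCND1 level was 22.1 times the CCND3 level in U87MG WT and 7.31 times in U87MG KD, and 10.3 times in U251 WT and 2.93 times in U251 KD. The ratio of CCND1 to CCND3 in KD was thus 0.331 times that in WT in U87MG (95% conditional interval 0.291 to 0.376) and 0.284 times in U251 (0.255 to 0.317). CCND1 remained the most abundant D-type cyclin in every library. Summed D-type cyclin RPKM was 249 in U87MG WT, 62.7 in U87MG KD, 140 in U251 WT and 48.8 in U251 KD.

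Among the E-type cyclins the paralog that was lower in both lines was the less abundant one. CCNE2, encoding cyclin E2, was at 8.09 RPKM in U87MG WT (772 reads) and 1.63 RPKM in U87MG KD (154 reads). In U251 it was at 11.7 RPKM in WT (1069 reads) and 1.95 RPKM in KD (198 reads). Both knockdown values lay below both control values. The read ratio was 0.202 in U87MG (0.169 to 0.240) and 0.166 in U251 (0.142 to 0.194), and the log2 ratios were -1.79 and -2.11. CCNE2 ranked 55th from the lowest gene in U87MG and 13th in U251. At its low KD levels these log2 ratios depend on the 1 RPKM added to each value. With 0.1 RPKM added they were -2.24 in U87MG and -2.53 in U251. Its exons overlap those of INTS8, a subunit of the Integrator complex on the other strand, by 1629 bases. INTS8 was at 15.3 RPKM in U87MG WT, 11.4 RPKM in U87MG KD, 19.2 RPKM in U251 WT and 14.1 RPKM in U251 KD. How strand was treated in counting is not stated in the labels, and reads of overlapping exons cannot be told apart without it.

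CCNE1, encoding cyclin E1, was at 27.5 RPKM in U87MG WT and 27.6 RPKM in U87MG KD. In U251 it was at 14.7 RPKM in WT and 7.31 RPKM in KD. The U87MG libraries were the high ones and had a read ratio whose interval held 1, whereas U251 KD was the lowest of the 4. The read ratio was 1.005 in U87MG (0.932 to 1.08) and 0.499 in U251 (0.440 to 0.565). This difference between the lines was not tested, since each line has 1 library per arm. CCNE1 lies at chr19:29811898-29824308 (GRCh38, forward strand).

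The level of CCNE2 per CCNE1 was 0.294 in U87MG WT and 0.0591 in U87MG KD, and 0.801 in U251 WT and 0.267 in U251 KD. In KD this ratio was 0.201 times that in WT in U87MG (95% conditional interval 0.165 to 0.243) and 0.333 times in U251 (0.273 to 0.407). CCNE1 accordingly made up 77.3% of the E-type cyclin RPKM in U87MG WT and 94.4% in KD, and 55.5% in U251 WT and 78.9% in KD. Their sum was 35.6 RPKM in U87MG WT, 29.3 in U87MG KD, 26.4 in U251 WT and 9.27 in U251 KD. The summed level was closer between the arms in U87MG than in U251.

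**Figure D2:**
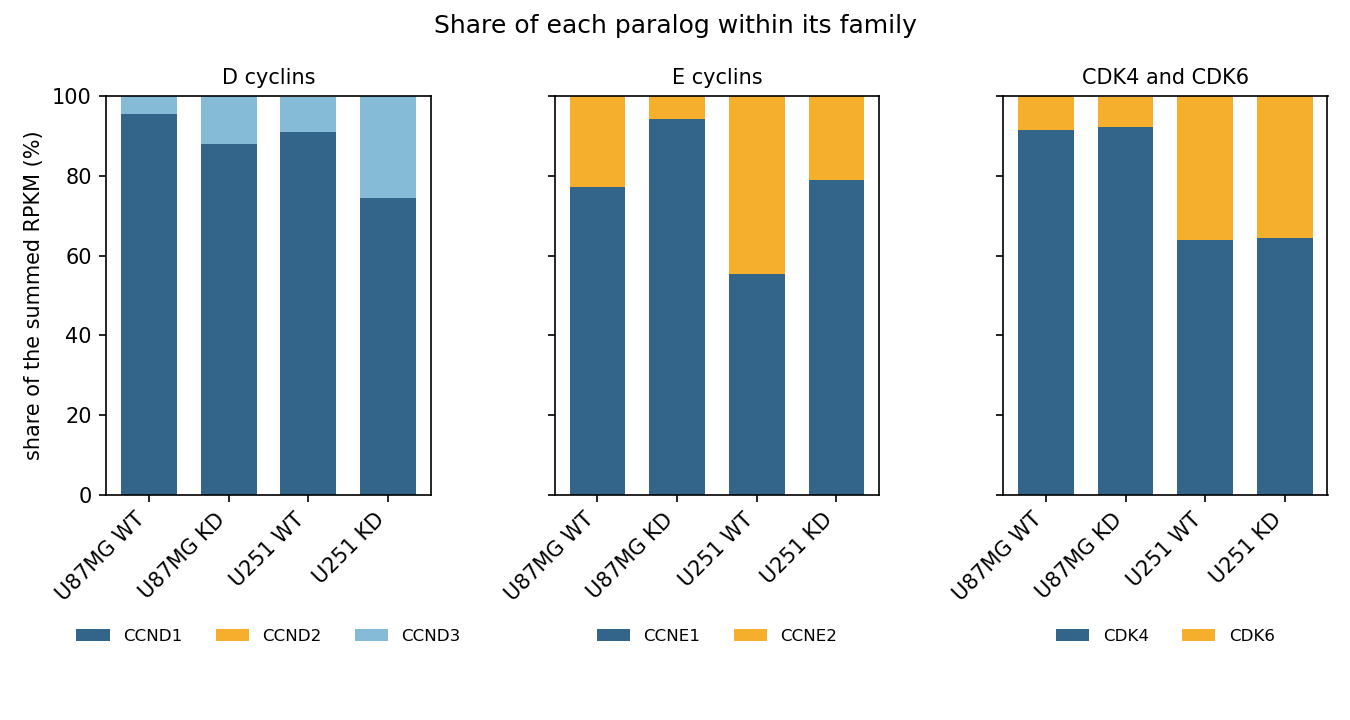
Stacked bars give the share in percent of each paralog in the summed RPKM of its family, for D-type cyclins, E-type cyclins, and CDK4 with CDK6, in the 4 libraries. CCND1 and CCNE2 take smaller shares in KD than in WT in both lines, and the CDK4 share differs between the lines but hardly between the arms.

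Of the kinases, CDK2 was the one that was lower in both knockdown libraries. CDK2 was at 16.8 RPKM in U87MG WT, 7.87 RPKM in U87MG KD, 26.7 RPKM in U251 WT and 18.3 RPKM in U251 KD. The KD value of U251 lay above the WT value of U87MG, so the arms overlap across the lines. The read ratio was 0.468 in U87MG (0.419 to 0.523) and 0.685 in U251 (0.635 to 0.740). CDK2 lies at chr12:55966769-55972784 (GRCh38, forward strand). It overlaps PMEL on the other strand by 89 exon bases, and PMEL stood at 0.122 RPKM or less. A further 565 exon bases overlap the antisense gene AC025162.1, for which no value is used here.

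CDK4, a catalytic partner of D-type cyclins, was at 62.4 RPKM in U87MG WT and 69.4 RPKM in U87MG KD, and at 28.9 RPKM in U251 WT and 31.1 RPKM in U251 KD. Both U87MG libraries lay above both U251 libraries. The read ratio was 1.11 in U87MG (1.06 to 1.17) and 1.08 in U251 (1.003 to 1.15). CDK6, the other partner, was at 5.76 and 5.75 RPKM in U87MG WT and KD and at 16.2 and 17.2 RPKM in U251 WT and KD. Its read ratio was 0.998 in U87MG (0.934 to 1.07) and 1.06 in U251 (1.02 to 1.10). The log2 ratio of CDK6 in U87MG, -0.0022, turned to 0.10 after trimmed-mean rescaling of the libraries and to 0.12 after quantile normalization. CDK4 lies at chr12:57747727-57756013 and CDK6 at chr7:92604921-92836594 (GRCh38, both reverse strand). The exons of CDK4 overlap 1369 exon bases of TSPAN31 on the other strand, which stood at 7.50, 4.69, 3.82 and 3.39 RPKM in U87MG WT, U87MG KD, U251 WT and U251 KD.

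CDK4 outweighed CDK6 by 10.8 times in U87MG WT and 12.1 times in U87MG KD, against 1.78 and 1.81 times in U251 WT and KD. Per unit of CDK4 and CDK6 RPKM, D-type cyclin RPKM was 3.65 in U87MG WT and 0.834 in U87MG KD, and 3.10 in U251 WT and 1.01 in U251 KD. Per unit of CDK2 RPKM, E-type cyclin RPKM was 2.12 in U87MG WT and 3.72 in U87MG KD, but 0.988 in U251 WT and 0.506 in U251 KD. The D-type ratio was lower in KD in both lines, and the E-type ratio was higher in KD in U87MG and lower in U251. These are ratios of mRNA levels, and proteins were not measured.

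Promoters were looked up in RefSeq (GRCh38.p14), where 6 of the 10 members (CCND3, CCNE1, CDK4, CDK6, CDKN1B and CDKN2D) matched 9 annotated starts. CCND1, CCND2, CCNE2 and CDK2 had no entry. The 250 bases before each start were searched on both strands for the E-box CACGTG, the letters bound by MYC, and for TTTNNCGC. The latter is a loose E2F-type motif in which N is any base. The 2 motifs share no overlap in these windows. CDK4 held 3 E-boxes, and no other member start held one, against 6.34% of 35116 promoters with at least 1. CDKN2D held 1 E2F-type motif and no other member start did, against 5.92% of all promoters. Of the 30 CDK4 bases shown, 23 are exonic in GENCODE 29 transcripts of CDK4, and this RefSeq start lies inside the GENCODE span of CDK4, downstream of its 5′ end. The stretches below are the ones with a match, with the motif in capitals, from chr12:57752499-57752528 and chr19:10569170-10569209 on the reverse strand.
CDK4, with 2 of its 3 E-boxes: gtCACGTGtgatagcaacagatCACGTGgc
CDKN2D, with its E2F-type motif: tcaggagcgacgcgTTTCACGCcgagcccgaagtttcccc
MYC itself was at 33.8 RPKM in U87MG WT, 37.6 RPKM in U87MG KD, 33.9 RPKM in U251 WT and 43.1 RPKM in U251 KD. A match in letters is a description and says nothing of binding.

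Of the inhibitors, CDKN1B, encoding p27, differed little between the arms. CDKN1B was at 14.1 RPKM in U87MG WT and 12.7 RPKM in U87MG KD, and at 25.8 RPKM in U251 WT and 25.2 RPKM in U251 KD. Both U251 libraries lay above both U87MG libraries. The read ratio was 0.907 in U87MG (0.823 to 0.999) and 0.977 in U251 (0.912 to 1.05). CDKN2D, encoding the INK4 inhibitor p19, was at 16.8 RPKM in U87MG WT, 9.16 RPKM in U87MG KD, 12.0 RPKM in U251 WT and 9.90 RPKM in U251 KD. Both knockdown values lay below both control values. Its read ratio was 0.545 in U87MG (0.475 to 0.623) and 0.827 in U251 (0.719 to 0.952). CDKN1B lies at chr12:12715058-12722371 (forward strand) and CDKN2D at chr19:10566462-10569059 (reverse strand) in GRCh38.

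CDKN2D was the only INK4 gene detected at an appreciable level. CDKN2A and CDKN2B, encoding the INK4 proteins p16 and p15, were listed at 0 in all 4 libraries, and CDKN2C, encoding p18, was at 0.0171 RPKM in U251 KD and at 0 in the other 3. Deletion of CDKN2A is a known feature of both lines. CDKN1A, encoding p21, was at 49.9 RPKM in U87MG WT, 53.7 RPKM in U87MG KD, 9.08 RPKM in U251 WT and 3.45 RPKM in U251 KD. CDKN1C, encoding p57, did not exceed 0.352 RPKM.

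**Figure D3:**
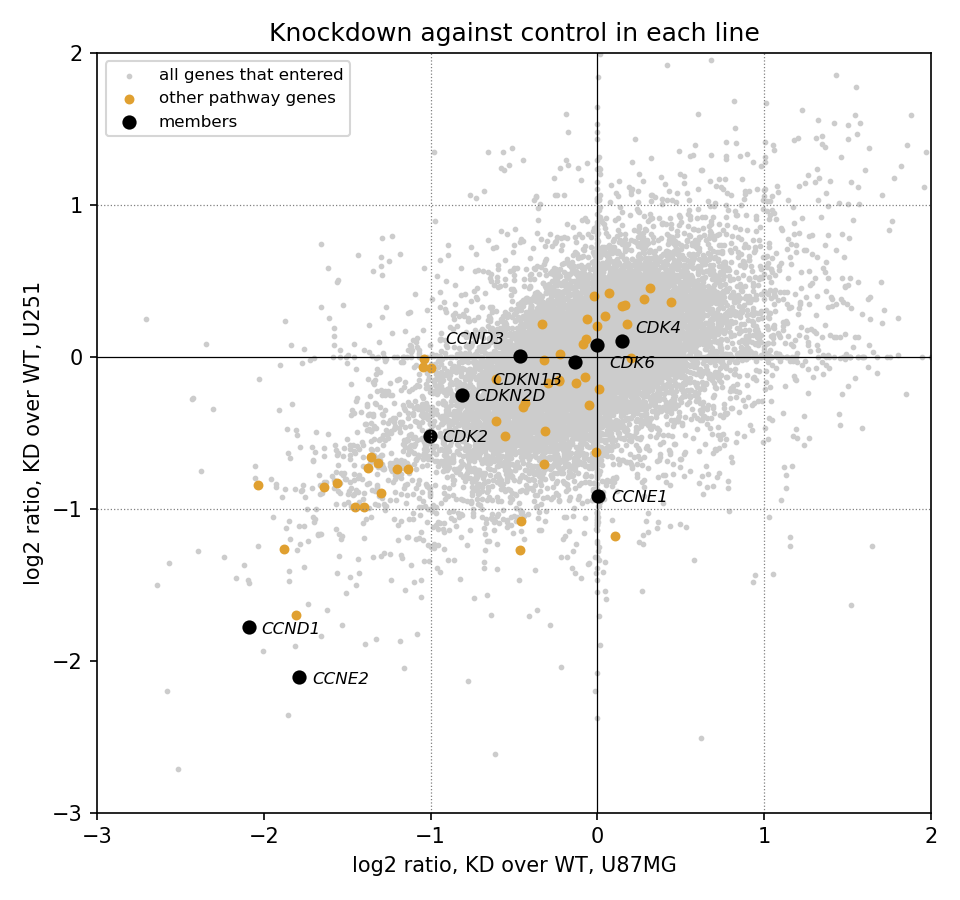
Each point is a gene, with its log2 ratio of KD over WT in U87MG on the x axis and in U251 on the y axis. Members are black, other pathway genes orange, all genes that entered grey, and dotted lines mark 2-fold. CCND1 and CCNE2 lie at the lower left, CCNE1 lies at 0.0063 in U87MG and -0.91 in U251, and CDK4, CDK6 and CDKN1B lie near the origin. The axes leave out 46 genes.

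The order of levels changed at the top between the arms. CCND1 was the highest member in both WT libraries, at 3.81 times CDK4 in U87MG and 4.41 times in U251. In U87MG KD, CDK4 was the highest, at 1.26 times CCND1 (1.21 to 1.31). In U251 KD, CCND1 was still the highest, at 1.17 times CDK4 (1.11 to 1.24). CCND2 was the lowest member in all 4 libraries, and CCNE2 was next in every library except U87MG WT, where CDK6 was. Neighbours in this order that could not be separated by counting error were CDKN2D and CDK2 in U87MG WT and CDK2 and CCND3 in U87MG KD. In U251 WT these were CDK2 and CDKN1B, CCND3 and CDKN2D, and CDKN2D and CCNE2, and in U251 KD they were CDK2 and CDK6. The spread between replicate libraries is unknown, so neighbours that counting separates may still lie within it.

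The difference between the lines played no part in choosing the members and was tested with limma over all genes, with the arm as a covariate and 2 libraries per line. CCND1, CCNE1 and CDK4 were higher in U87MG, and CDK2, CDK6 and CDKN1B were higher in U251. That is 3 members in each direction, while 21.6% of all genes were called higher in U87MG and 27.0% higher in U251. CDK6 had the largest difference, -1.39 ± 0.16 (SE) for U87MG minus U251 (adjusted p = 0.000372 by limma), with values of -1.35 between the WT and -1.43 between the KD libraries. CCNE1 differed by 1.33 ± 0.23 (adjusted p = 0.00263 by limma), and CDK4 by 1.11 ± 0.16 (adjusted p = 0.00108 by limma). CDKN1B differed by -0.88 ± 0.16, CDK2 by -0.88 ± 0.18 and CCND1 by 0.74 ± 0.16 (adjusted p = 0.00349, 0.00598 and 0.00767 by limma). CDKN2D was higher in U87MG in the WT libraries (0.46) and lower in the KD libraries (-0.10), with an estimate of 0.18 ± 0.19 (adjusted p = 0.46 by limma). CCND3 (-0.42 ± 0.18) and CCNE2 (-0.33 ± 0.17) did not pass either (adjusted p = 0.0916 and 0.155 by limma). The calls of CCND1 and CDK2 were lost without the arm as a covariate (adjusted p = 0.55 and 0.154 by limma). Without the filter on low values, the calls of CCND1, CCNE1 and CDK2 were lost (adjusted p = 0.0557, 0.0668 and 0.0612 by limma).

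**Figure D4:**
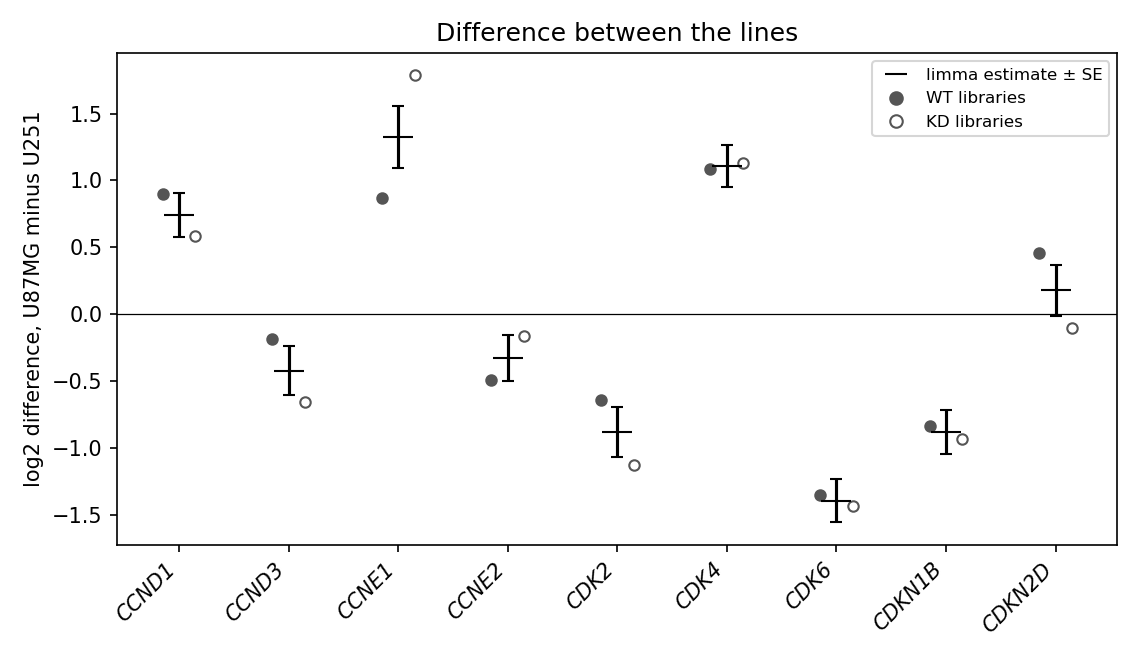
Log2 difference of U87MG minus U251 for the 9 members that entered, with filled circles for the WT libraries, open circles for the KD libraries, and dashes with bars for the limma estimate ± SE. CDK4 and CDK6 lie on opposite sides of 0 with like values in both arms, and the CCNE1 difference is larger between the KD libraries.

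The other genes of the pathway were a list of 55, of which 51 entered. By limma across both lines (2 libraries per arm, line as a block), 13 fell and none rose in the knockdown, while 2.61% of all genes were called lower and 1.16% higher (420 and 186 genes, against 9 and 12 after trimmed-mean rescaling). List medians were -0.32 in U87MG and -0.17 in U251, against -0.05 and -0.0037 over all genes. The list was chosen with earlier results of these data known, so nothing is read from these differences. The number of calls depended on the scaling, and after trimmed-mean rescaling TFDP1 was the 1 gene of the 13 still called (adjusted p = 0.044 by limma). Without an eBayes trend 5 were called, and with no block or no filter none was, at an adjusted p of 0.42 or more.

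The RB and E2F group was the largest of the list, and 5 of its 13 genes were called. Nothing is read from how the calls spread over the groups. TFDP1, the dimer partner of E2F factors, stood at 51.0 and 13.9 RPKM in U87MG WT and KD and at 50.4 and 14.8 RPKM in U251 WT and KD, and it fell (-1.75 ± 0.16 by limma, adjusted p = 0.00723). RBL1, encoding the RB relative p107, fell by 1.57 on the log2 scale (adjusted p = 0.014 by limma). E2F8 (-1.44), a repressor of the E2F family, and the activators E2F2 (-1.05) and E2F1 (-1.01) fell too, with adjusted p from 0.0335 to 0.0496 by limma. RB1 was at 10.0 and 6.52 RPKM in U87MG WT and KD, and at 31.9 and 22.0 RPKM in U251 WT and KD. MYBL2 (-1.25) and FOXM1 (-1.20), transcription factors of late cell-cycle genes, were the 2 called of 7 in the DREAM and MYB group.

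Of the genes that act on kinases of the cell cycle, WEE1 (-1.10) and PKMYT1 (-1.01), which place inhibitory phosphates on CDK1, fell. The other 4 of that group of 6 were not called. SKP2, the ubiquitin ligase subunit that recognises p27, fell by 0.94, the 1 call among 11 ubiquitin ligase and CKS genes. CCNA2 (-1.22), encoding the S-phase partner of CDK2, CDK1 (-1.19), the mitotic kinase, and CDKN3 (-0.97), a phosphatase that acts on CDK2, fell as well. None of the 6 genes upstream of cyclin D1 was called. Among all genes 2.61% were called lower and 1.16% higher, so nothing is read from the lack of a call among 6. The median log2 ratios of these 6 genes were -0.0045 in U87MG and 0.26 in U251.

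All 10 proliferation markers were lower in the knockdown libraries of both lines, as CCND1, CCNE2, CDK2 and CDKN2D were. The markers had log2 ratios from -2.12 to -1.03 in U87MG and from -1.37 to -0.21 in U251. By limma 8 were called lower, against 2.61% of all genes, but the markers were chosen with earlier results known. Without the block or the filter no gene was called lower, and after trimmed-mean rescaling 9 of all genes were. The summed RPKM of the markers was 638 in U87MG WT, 211 in U87MG KD, 922 in U251 WT and 506 in U251 KD. The medians of the markers were -1.46 in U87MG and -0.85 in U251. CCND1 (-2.09 and -1.78), CDK2 (-1.01 and -0.52) and CDKN2D (-0.81 and -0.25) also had the more negative ratio in U87MG. CCNE2 had it in U251 (-1.79 in U87MG and -2.11 in U251). The counting intervals of the CCNE2 read ratios overlap, 0.169 to 0.240 in U87MG and 0.142 to 0.194 in U251. The part of the share of cycling cells in the members' values was not tested.

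**Figure D5:**
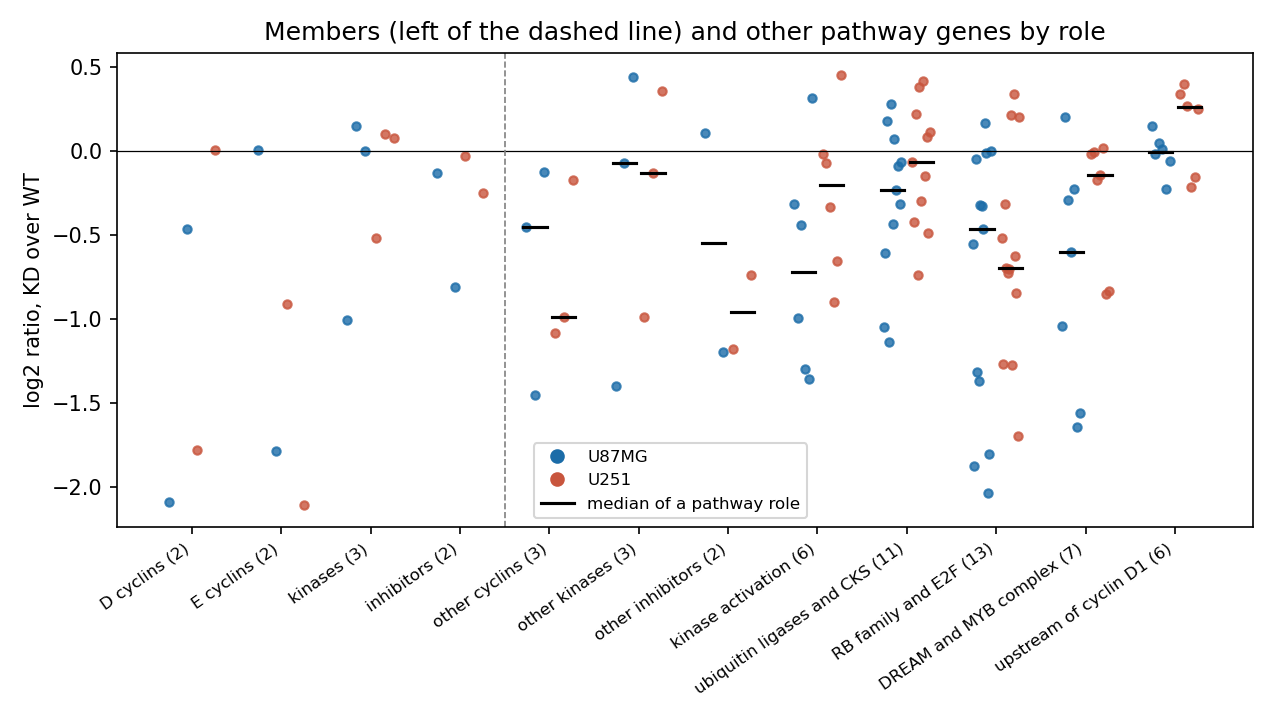
Log2 ratio of KD over WT by role in U87MG (blue) and U251 (red), 1 point per gene, with the number of genes in parentheses and a black line at the median of each role outside the members. Within the D-type cyclins, E-type cyclins and kinases one gene lies well below another, and the genes upstream of cyclin D1 lie around 0 in U87MG and mostly above it in U251.

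The genes whose centred log2 profiles over the 4 libraries were nearest to those of 4 members were listed by Euclidean distance among 10751 genes that reached 5 RPKM. With 4 libraries such likeness is a description and nothing is said of shared control. The nearest to CCND1 were MIR4517 (distance 0.299, on 5 to 31 reads), CORO1C (0.372), encoding an actin-binding coronin, and FTSJ3 (0.515), encoding a ribosomal RNA processing factor. CORO1C was at 192, 55.9, 95.8 and 36.1 RPKM in U87MG WT, U87MG KD, U251 WT and U251 KD. The 3′ UTRs of both CORO1C and FTSJ3 carried GACGTGT. The heptamer was singled out on the same low ratios that bring these genes near CCND1, so nothing is read from this. Of all searched genes, 2.72% carried it. Nearest to CCNE2 were MAT2B (0.371), TFDP1 (0.410) and LOC441488 (0.434), and neither MAT2B nor TFDP1 carried the heptamer in the 3′ UTR. The genes nearest to CCND3 were BMI1 (0.0396), TATDN2 (0.0485) and FAHD2A (0.0492). Those nearest to CDK6 were PTPRJ (0.0594), TUBA1A (0.0636) and SIL1 (0.0657), and PTPRJ carried the heptamer with log2 ratios of -0.05 and 0.01.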

How the data were processed

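The authors deposited RPKM values per gene, scaled by them to gene length and library size. The submitters' processing notes name Bowtie 0.12.2 and hg19. The counter, the annotation and the strand setting: not given in the sources used here. Groups follow the sample titles, and all 4 columns of values were used.

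Because RPKM steps in units of 1 read, whole reads were recovered within 0.01 reads for 99.8% of 27973 rows above 0. The totals came from 235 of 280 microRNA hairpin genes that gave the same value. When 300 rows were multiplied by random factors, 17.3% still passed.

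limma 3.58.1 (R 4.3.3) was fitted to log2(RPKM + 1) of 16098 genes with line and arm as terms and an intensity trend, two-sided, with Benjamini-Hochberg adjustment and a threshold of 0.05. Each gene then has 1 residual degree of freedom. With 1 library per line and arm, that residual is the gap between the lines in their KD to WT difference. A true difference between the lines and library noise, which may be technical, cannot be told apart in it. The p-values are measured against that gap, moderated over genes, in these 4 libraries alone and not against replicates. The labels do not say whether libraries came from separate cultures. The fit was also run on simulated data with the same knockdown effect in both lines, so it was not checked where the lines differ in response.

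Members and gene lists were chosen with earlier results of these data known. Named were all members, SRSF1, pathway genes called over all genes or with the largest mean ratio in their role, CDKN2A, CDKN2B, CDKN1A, and the 3 nearest genes of 4 members; the remaining pathway, marker and overlapping genes were named after their values were seen. Positions are from GENCODE 29 (GRCh38) and none were converted from hg19.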

Additional observations from a re-analysis of the deposited data

Results flagged for a closer look

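By their values, the following members and CDKN1A had KD above WT in 1 line and below it in the other. The gap between the lines was not tested for any of them, since each line has 1 library per arm. The counting interval of the read ratio held 1 for CCNE1 in U87MG, CCND3 in U251 and CDK6 in U87MG, so the direction there is not settled. Other pathway genes with opposite signs, such as E2F4 (-0.33 in U87MG and 0.22 in U251), are not listed. For CCNE1 the log2 ratio was 0.0063 in U87MG and -0.91 in U251, a difference of 0.92 (U87MG minus U251). For CDKN1A it was 0.11 in U87MG and -1.18 in U251, a difference of 1.28. CCND3 had -0.46 in U87MG and 0.0046 in U251, a difference of -0.47. CDK6 had -0.0022 in U87MG and 0.08 in U251, a difference of -0.0789, and its sign in U87MG changed with the scaling of the libraries.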

How the results depend on the processing

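Over all genes the knockdown called 420 lower and 186 higher by limma. These became 9 and 12 after trimmed-mean rescaling, 172 and 88 without a trend, and 0 and 0 without a block for the cell line or without the filter (183 lower and 79 higher, and 1890 lower and 1234 higher, at an unadjusted p under 0.05). Higher calls were 301 at an RPKM of at least 5 and 315 after quantile normalization, where 608 and 513 were lower. Higher calls made up 30.7% of all calls, 57.1% after trimmed-mean rescaling and 38.0% after quantile normalization. Of the 13 pathway genes called lower, 1 was called after trimmed-mean rescaling, 5 without a trend, and 0 without the block or the filter. Without the filter, 1 of the 3 members called higher in U87MG and 2 of the 3 called higher in U251 were called. In U87MG, 2 in place of 3 members were 2-fold lower after trimmed-mean rescaling or quantile normalization. CDK6 in U87MG was the 1 member ratio that changed sign. The knockdown comparison was paired within each cell line by the block, the labels carry no replicate numbers for another pairing, and a fit without any 1 library has no residual degrees of freedom.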
